A study of Mus musculus with 2 samples.

Results

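The respiratory chain genes of colon CD8 T cells are described here across 8 hashtagged cell pools, 2 donor groups and 12 clusters of cells. They were taken as the rows of the UMI table whose names begin with Nduf, Sdh, Uqcr, Cox4 to Cox8, Atp5, mt-Nd, mt-Co, mt-Atp or mt-Cytb. The rule found 104 of 12798 genes, of which 91 are encoded in the nucleus and 13 in the mitochondrial genome. By the complex their prefixes name, the nuclear genes comprised 45 of complex I, 8 of complex II, 8 of complex III, 13 of complex IV and 17 of complex V. The mitochondrial genes comprised 7 of complex I, 1 of complex III, 3 of complex IV and 2 of complex V. The nuclear set includes 12 assembly factors (Ndufaf1 to Ndufaf8 and Sdhaf1 to Sdhaf4), which help to build complexes I and II and are not part of the finished enzymes.

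The respiratory chain sits in the inner mitochondrial membrane. Complexes I and II pass electrons from NADH and succinate to ubiquinone, complex III passes them on to cytochrome c and complex IV to oxygen, and complex V, the ATP synthase, uses the resulting proton gradient to make ATP. Complexes I, III, IV and V are built from subunits of both genomes, and complex II from nuclear subunits alone. In T cells, respiration supports resting and long-lived cells and is used beside glycolysis after activation.

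The cells were CD8 T cells isolated from colon lamina propria in an adoptive transfer model of colitis. Rag1 knockout mice, which lack T and B cells of their own, received splenic wildtype naive CD4 T cells (CD4+CD45RBhighCD25-) together with splenic CD8 T cells (TCRb+CD8b+CD4-) from 1 of 2 donor genotypes. The donors were Bcl6fl/flCd8aCre, in which Cre under Cd8a control acts on a Bcl6 gene flanked by loxP sites, or Bcl6fl/fl without Cre. The mice were 8 to 12 weeks old at the start of the transfer and were sampled 6 to 10 weeks later, and hosts of both groups received the same CD4 T cells. The groups are named Crep and Cren in the files. Each held 4 hashtags. The names were read here as Cre-positive and Cre-negative, although the labels do not expand them. Nor do the labels tie a hashtag to a mouse, and p-values therefore reflect only how hashtags varied, which may be technical.

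All cells came from 1 library of 8562 cells with 25614763 UMIs. The hashtags held 900 to 1305 cells with 2635241 to 4201265 UMIs, and the median per cell ran from 2663 to 3000 UMIs in Cren and from 2334 to 2997 in Crep. CD8 T cell markers (Cd8a, Cd8b1, Cd3e, Cd3g, Trac) had a UMI in 99.6% of cells, against 2.20% for the CD4 T cell markers Cd4, Cd40lg and Foxp3. Lists of other cell types had one in 32.1% (myeloid), 23.1% (gamma delta T), 5.52% (natural killer and innate lymphoid), 5.19% (B and plasma) and 4.15% (epithelial and stromal). Bcl6, the gene targeted in the donors, was higher in the hashtags labelled Crep, at 29.3 ± 3.49 CPM (UMIs of a gene scaled to a fixed total per hashtag) against 17.5 ± 2.13 (SD, n = 4; log2 0.75 with SE 0.14, adjusted p = 0.0293 by edgeR). A count of transcript 5′ ends per gene shows nothing of whether the floxed part was deleted, so every direction below is between groups as labelled. Several marker lists lay apart between the groups. The CD8 T cell list (5 of 5 measured) summed to 5077 to 5689 CPM in Crep and 4201 to 4955 in Cren. The cytotoxic list (5 of 5 measured) summed to 5844 to 9670 CPM in Crep and 1421 to 5393 in Cren, the stem-like list (5 of 5) to 164 to 218 and 251 to 379, and the epithelial and stromal list (3 of 5) to 8.05 to 15.5 and 15.8 to 21.6. The CD4 T cell list overlapped (7.97 to 15.8 and 3.41 to 10.7), but Cd4 itself had 5.69 to 8.92 CPM in Crep and 0 to 0.628 in Cren, with a UMI in 0.969% of cells. Their part in the differences described below was not tested.

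The respiratory chain genes took 766848 UMIs, or 2.99% of the total, with 582602 UMIs (2.27%) on the nuclear genes and 184246 (0.719%) on the mitochondrial ones. The 5′ kit tags each molecule once, so a CPM is a share of tagged molecules and was not divided by length. Cox8a, the ubiquitous small subunit of complex IV, was the most abundant nuclear member with a mean of 1369 CPM over the 8 hashtags. Atp5e, the epsilon subunit of complex V, had 989 CPM and Uqcrh, the hinge protein of complex III, 747 CPM. The highest members of complexes I and II were the accessory subunit gene Ndufa6 (535 CPM) and the iron-sulfur subunit gene Sdhb (154 CPM). The median nuclear member had 523 CPM in complex IV, 377 in complex V, 207 in complex III, 129 in complex I and 46.7 in complex II. The 12 assembly factors had a median of 27.0 CPM (6.82 to 57.2), against 197 CPM for the other 79 nuclear genes.

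Where 1 subunit has several gene copies, the testis and muscle forms were rare. Cox6b1 held 99.9% of the Cox6b UMIs and the testis form Cox6b2 had 16 UMIs in all. Among the Cox7a genes, Cox7a2 held 73.1%, Cox7a2l, whose protein joins complexes III and IV into supercomplexes, 26.8% and the muscle form Cox7a1 0.155% (17 UMIs). The c subunit of the ATP synthase ring, which 3 genes encode with the same mature protein, came 48.6% from Atp5g2, 35.7% from Atp5g3 and 15.8% from Atp5g1. The Atp5g2 share ran from 46.3% to 51.9% over the hashtags, so this order held in each of them.

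The mitochondrial genes spanned a wide range of levels. mt-Co1, the catalytic subunit of complex IV, held 34.9% of the mitochondrial UMIs, mt-Co2 16.5%, mt-Atp8 13.9%, mt-Nd4l 9.70% and mt-Cytb, the cytochrome b of complex III, 6.56%. At the low end, mt-Nd3 held 0.192% and mt-Nd6, the 1 subunit gene of the set on the other strand, 0.235%. Among the 7 complex I genes the highest mean level (mt-Nd4l, 695 CPM) stood beside one of 13.7 CPM (mt-Nd3). The spread among genes was far larger than the differences between groups given below.

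**Figure D1:**
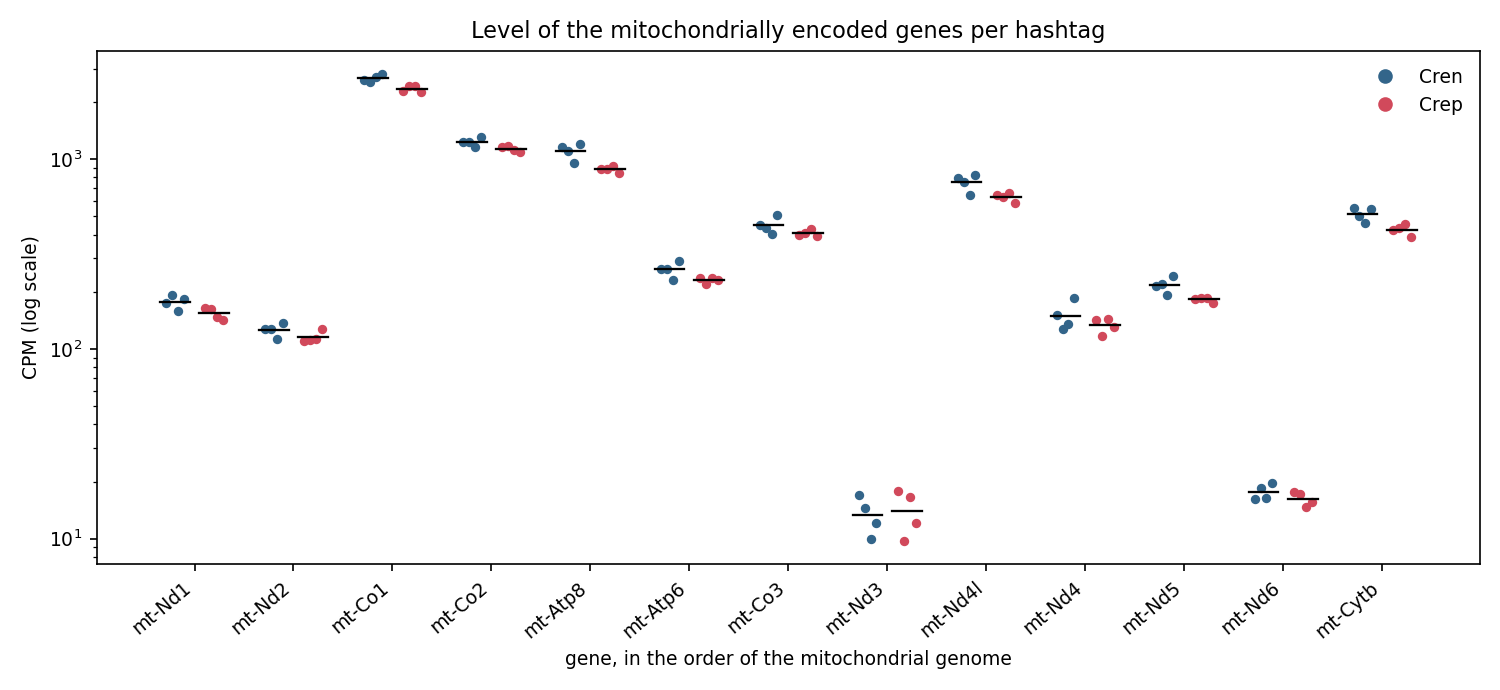
Level of each of the 13 mitochondrially encoded genes in CPM (log axis), in the order of the mitochondrial genome, with 1 point per hashtag (Cren blue, Crep red) and a bar at each group mean. mt-Co1 is highest in every hashtag, mt-Nd3 and mt-Nd6 lie lowest, and the Crep mean is below the Cren mean for each gene other than mt-Nd3.

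In 2 places the reading frames of neighbouring genes overlap by several bases on the plus strand of the mitochondrial genome. Each of these pairs is carried on 1 messenger RNA. By the annotation mt-Atp6 and mt-Co3 also share a single base (8607), and they are not treated as a pair here. mt-Atp8 (chromosome M, 7766 to 7969, GRCm38) and mt-Atp6 (7927 to 8607) share 43 bases, and mt-Nd4l (9877 to 10173) and mt-Nd4 (10167 to 11544) share 7. The sequences are shown because they mark where the count of a shared transcript passes from one gene to the next. Each is 120 bases of GENCODE transcript sequence, 5′ to 3′, with the bases common to both frames in capitals. The mt-Atp8 and mt-Nd4l stretches (7850 to 7969 and 10054 to 10173) end at the last base of the gene, and the mt-Atp6 and mt-Nd4 stretches (7927 to 8046 and 10167 to 10286) begin at its first.
mt-Atp8: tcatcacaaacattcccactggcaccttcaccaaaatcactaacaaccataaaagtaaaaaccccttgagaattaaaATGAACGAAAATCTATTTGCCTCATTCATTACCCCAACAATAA
mt-Atp6: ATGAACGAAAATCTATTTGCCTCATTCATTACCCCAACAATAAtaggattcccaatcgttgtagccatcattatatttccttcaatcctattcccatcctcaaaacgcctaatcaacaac
mt-Nd4l: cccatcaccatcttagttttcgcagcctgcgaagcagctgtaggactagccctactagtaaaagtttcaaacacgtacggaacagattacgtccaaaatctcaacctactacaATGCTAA
mt-Nd4: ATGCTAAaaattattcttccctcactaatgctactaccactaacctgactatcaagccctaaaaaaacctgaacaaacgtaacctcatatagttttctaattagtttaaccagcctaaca

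The upstream gene of each pair took most of the UMIs. mt-Atp8 had 25565 UMIs and mt-Atp6 6312, a ratio of 4.05 that ran from 3.63 to 4.38 over the hashtags. mt-Nd4l had 17871 UMIs and mt-Nd4 3607, a ratio of 4.95 with a range of 4.48 to 5.98. Since molecules of 1 messenger are divided between 2 genes by where the 5′ read fell, the level of any of these 4 genes alone is uncertain, and each pair is best read together.

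The comparison of Crep with Cren asks how these genes differed between CD8 T cells of the donor genotypes. The summed mitochondrial genes separated the groups, with Crep below, and the summed nuclear genes did not. Summed over the 13 mitochondrial genes, the sum was 7738, 7529, 7179 and 8251 CPM in Cren 1 to 4, against 6662, 6796, 6867 and 6397 CPM in Crep 1 to 4. Every Crep hashtag lay below every Cren hashtag, with means of 6681 ± 207 and 7674 ± 448 (SD, n = 4), a log2 difference of -0.20. Summed over the 91 nuclear genes, it was 23210, 22410, 22734 and 21596 CPM in Cren, against 22942, 23933, 22949 and 21534 CPM in Crep. These ranges overlapped, and the log2 difference was 0.02, or -0.01 when ribosomal protein genes were left out of the total. The ratio of mitochondrial to nuclear CPM was 0.342 ± 0.0283 in Cren and 0.293 ± 0.00691 in Crep, again with no overlap. A lower median mitochondrial share per cell in Crep is the same measure seen per cell, so it adds no separate evidence. No p is given for these sums, since the genes were chosen with results of these data known.

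**Figure D2:**
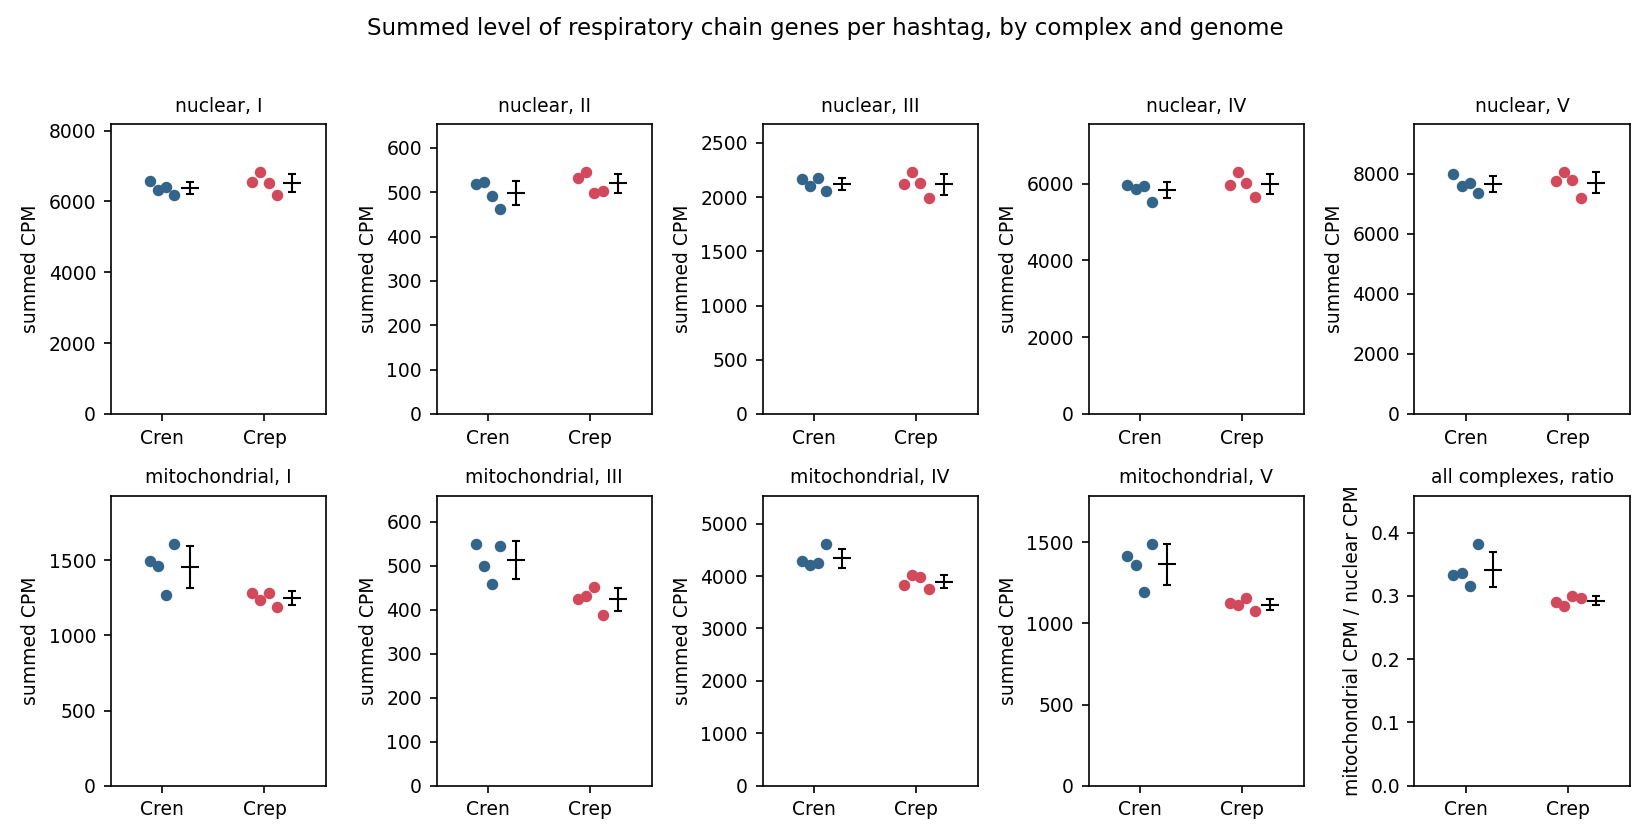
Summed CPM of the nuclear genes of complexes I to V (top) and of the mitochondrial genes of complexes I, III, IV and V (bottom), with the ratio of mitochondrial to nuclear CPM in the last panel; points are hashtags (Cren blue, Crep red) and black bars the mean ± SD of 4 hashtags. All 5 nuclear panels overlap, while the Crep points of mitochondrial complexes III, IV and V and of the ratio lie below all Cren points.

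By complex, the mitochondrial sums of complexes III, IV and V lay apart and that of complex I overlapped. The complex V pair summed to 1364 ± 127 CPM in Cren and 1116 ± 33.8 in Crep (SD, n = 4; log2 -0.29), and mt-Cytb to 513 ± 42.6 and 424 ± 26.6 (log2 -0.28). The 3 complex IV genes summed to 4339 ± 183 and 3893 ± 127 (log2 -0.16). The 7 complex I genes had means of 1458 ± 140 and 1247 ± 46.2 (log2 -0.23), but Cren 3 (1272) lay among the Crep hashtags (1187 to 1284). For the nuclear genes of every complex the ranges overlapped, with log2 differences from -0.01 (complex III) to 0.06 (complex II). Within the same complex the mitochondrial to nuclear ratio was 0.747 ± 0.0588 and 0.651 ± 0.0131 for complex IV and 0.178 ± 0.0195 and 0.145 ± 0.00498 for complex V (Cren first), with no overlap. For complex I the ratio lay apart (0.198 to 0.260 and 0.181 to 0.197) although the sum did not, and for complex III it overlapped (0.211 to 0.265 and 0.193 to 0.212) although the sum did not. The separation by complex rested in part on single genes and cells. Without mt-Co1 the complex IV sums overlapped (1565 to 1805 in Cren and 1482 to 1584 in Crep), and without mt-Atp8 so did those of complex V (232 to 291 and 219 to 237; log2 -0.19). Without clusters 7 and 10 the ratios of complexes I and V overlapped too.

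Depth and cell quality bear on a mitochondrial share. Over all cells, the ratio of mitochondrial to nuclear CPM was 0.441 in the 2143 cells with fewest UMIs (658 to 2072), and 0.335, 0.314 and 0.276 in 3 deeper bins of similar size. Crep 4, the hashtag with the lowest median UMI count (2334), had the lowest mitochondrial sum of the 8. It also gave 383 cells to cluster 7 and 333 to cluster 4. The part of depth or of the cluster mix in its sum was not tested. Each cell was also thinned to 2000 UMIs, with 1923 shallower cells left out. The sums over all 13 genes then did not overlap, at 6917 to 8102 CPM in Cren and 6269 to 6764 in Crep. Those of mt-Cytb did (424 to 528 and 367 to 459). Thinning keeps the expected mitochondrial share of each cell, so it cannot take out a share linked to depth. With only cells of at most 2% mitochondrial UMIs the sums over all 13 genes ran from 7017 to 8070 and from 6324 to 6703. That limit left out 164 of the 8562 cells and was set on the mitochondrial share itself, so it is no separate check. With the 6 clusters that could be tested weighted equally, the sums ran from 7349 to 8337 and from 6853 to 6931. The deposited cells had at most 3.0% mitochondrial UMIs, so cells above that limit are outside every value.

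Gene by gene, raw UMI sums per hashtag were tested across all genes with edgeR's quasi-likelihood test and Benjamini-Hochberg adjustment at 0.05. Of the 104 genes, 101 passed the filter on low counts, and Cox6b2, Cox7a1 and Atp5o (49 UMIs) did not. Exactly 1 of the 101, Ndufa4, passed the test, and it was lower in Crep; 0.611% of all 9653 genes tested passed, 0.269% of them as lower in Crep. A log2 fold change above 0 was found for 60 of 101 (49.9% of all genes), with a median of 0.04. By genome, 59 of 88 nuclear genes were above 0 (median 0.05) and 12 of 13 mitochondrial genes below 0 (median -0.17), where 50.1% of all genes were below 0. An unadjusted p under 0.05 was found for 3 of 88 nuclear and 7 of 13 mitochondrial genes, the latter all lower in Crep. Of all genes, 5.46% had such a p as lower in Crep, 5.69% as higher and 11.1% in either direction. The 13 mitochondrial genes were counted in the same hashtags, and some share a messenger RNA. They are therefore not separate tests of the groups, and their counts may repeat 1 lower mitochondrial sum.

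**Figure D3:**
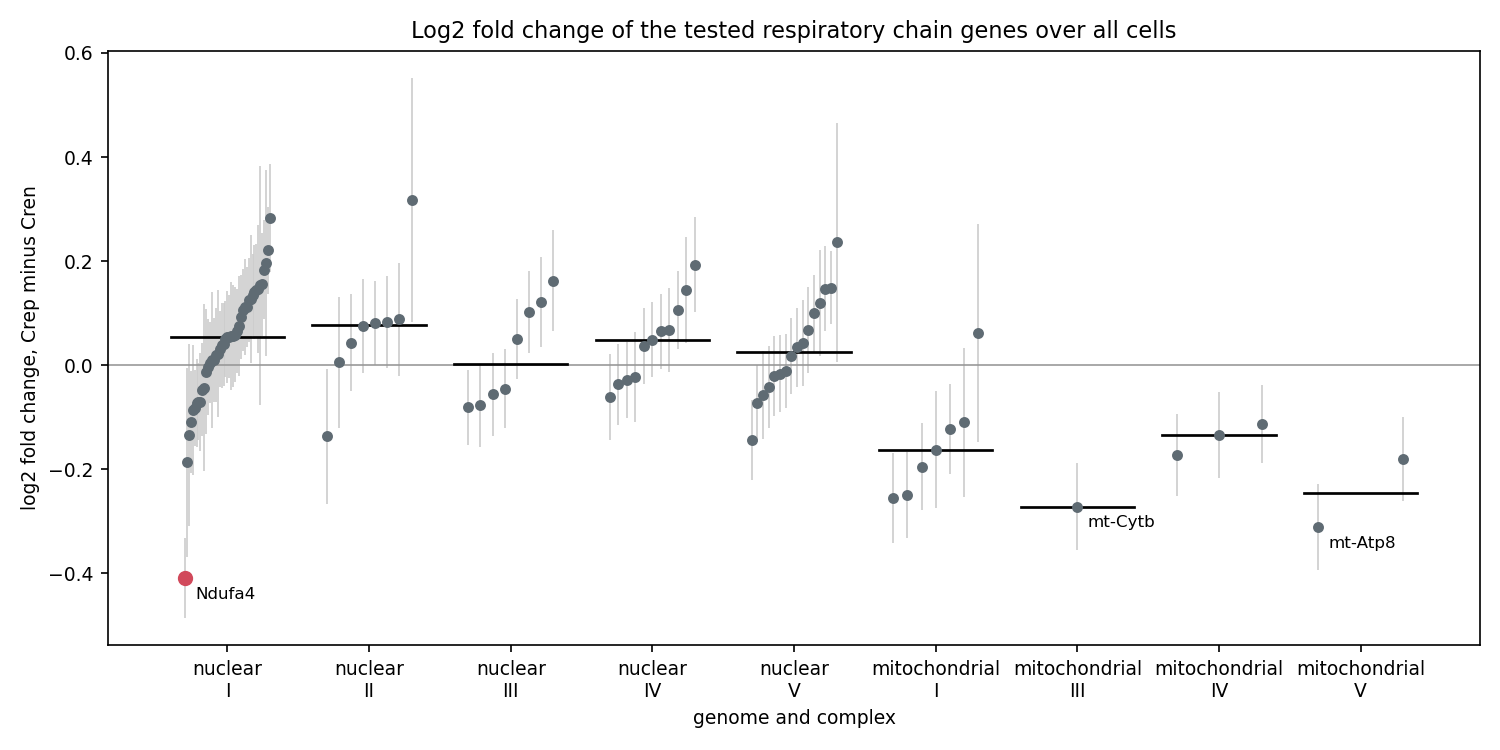
Log2 fold change (Crep minus Cren, all cells) of the 101 tested genes by genome and complex, with the SE as a grey line, the median of each class as a black bar and the gene that passed the test in red. Nuclear genes spread around medians between 0.00 and 0.08, all mitochondrial genes but 1 lie below 0, and Ndufa4 has the lowest value at -0.41.

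No mitochondrial gene passed on its own with edgeR (0 of 13; limma-voom also 0, and DESeq2 1, mt-Atp8). mt-Atp8 had 1152, 1097, 959 and 1198 CPM in Cren and 891, 892, 917 and 842 in Crep. The 2 groups did not overlap, with log2 -0.31 (SE 0.08, adjusted p = 0.109 by edgeR; 0.0451 with DESeq2 and 0.0385 without Cren 3, the lowest Cren hashtag). mt-Cytb had 550, 500.2, 459 and 545 CPM in Cren and 424, 431, 452 and 388 in Crep, at log2 -0.27 (SE 0.08, adjusted p = 0.181 by edgeR). Its groups did not overlap either, nor did those of mt-Co1 (log2 -0.17, adjusted p = 0.425) and mt-Nd5 (log2 -0.25, adjusted p = 0.235). Hashtag ranges lay apart with Crep below for 6 of the 101 genes, the other 2 being Ndufa4 and Atp5g2, and with Crep above for Atp5j2 and Ndufs7; over all genes these shares were 3.41% and 3.27%. The complex I genes mt-Nd4l (log2 -0.26, adjusted p = 0.245) and mt-Nd1 (-0.19, 0.382) and the complex V gene mt-Atp6 (-0.18, 0.408) had unadjusted p-values under 0.05 with overlapping ranges. mt-Co2 (-0.11), mt-Co3 (-0.13), mt-Nd2 (-0.12), mt-Nd4 (-0.16) and mt-Nd6 (-0.11) were also below 0. mt-Nd3 was the exception at 0.06 (SE 0.21), on 354 UMIs in all.

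Shares of the mitochondrial UMIs were compared as a description. mt-Co1 took 34.7% ± 1.87 of them in Cren and 35.2% ± 0.73 in Crep (SD, n = 4), and mt-Atp8 14.3% ± 0.671 and 13.3% ± 0.13. Hashtags of the groups overlapped in both shares. The ratio of mt-Atp8 to mt-Atp6 was 4.196 ± 0.126 in Cren and 3.84 ± 0.188 in Crep, with no overlap between hashtags (at least 4.12 in Cren and at most 4.08 in Crep) but between genes whose separate levels are uncertain, and that of mt-Nd4l to mt-Nd4 5.12 ± 0.652 and 4.77 ± 0.452, with overlap.

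Ndufa4 (chromosome 6, 11900292 to 11907497, minus strand, GRCm38) carries a complex I name, but its protein is now placed in complex IV. Its levels were 363, 355, 368 and 325 CPM in Cren 1 to 4, and 264, 249.7, 291 and 255 CPM in Crep 1 to 4. The highest Crep hashtag lay below the lowest Cren hashtag, and the mean fell from 353 ± 19.3 to 265 ± 18.6 CPM (SD, n = 4), or by log2 -0.41 with SE 0.08 (adjusted p = 0.0303, edgeR). The 45 nuclear genes with complex I names had a median of 0.05, and 32 of them were above 0. The call was lost in some alternatives and held in others, and the reasons were not tested. The value with the mix of clusters held fixed came from another method, a limma fit of log CPM averaged over the clusters that could be tested. It gave a log2 fold change of -0.28 (adjusted p = 0.102). Without clusters 7 and 10, in each of which 1 hashtag gave most of the cells, edgeR gave -0.33 (adjusted p = 0.0718). Without Cren 1, Cren 2, Crep 1, Crep 2 or Crep 4 the value was between -0.39 and -0.41, with adjusted p-values from 0.0682 to 0.117. Ndufa4 still passed without Cren 3, Cren 4 or Crep 3 (adjusted p = 0.0358, 0.0203 and 0.0353, edgeR).

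Among the other nuclear genes of complex I, Ndufs6, an accessory subunit next to the NADH-oxidising end, had 69.0, 62.5, 62.1 and 52.3 CPM in Cren and 71.4, 84.0, 68.5 and 75.1 in Crep. Its groups overlapped, at log2 0.28 (SE 0.10, adjusted p = 0.292 by edgeR). The abundant accessory subunit genes Ndufa6 (526 ± 20.05 and 543 ± 18.3 CPM in Cren and Crep) and Ndufa13 (472 ± 34.5 and 513 ± 31.7) had log2 fold changes of 0.05 and 0.13. The core subunit gene Ndufs7 stood at log2 0.14 (adjusted p = 0.564 by edgeR). None of the 12 assembly factors passed; 7 were above 0, with a median of 0.02.

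Of the complex II genes, 0 of 8 passed and 7 were above 0. Sdha, the flavoprotein that oxidises succinate, had 99.1 ± 7.46 CPM in Cren and 104 ± 3.17 in Crep (log2 0.08), and Sdhb 149.7 ± 14.4 and 158 ± 12.2 (log2 0.08). Sdhc, a membrane anchor, had a log2 fold change of 0.09 and the assembly factor Sdhaf1 -0.14. In complex III, 0 of 8 passed and 4 were above 0. Uqcrh had 760.1 ± 22.2 CPM in Cren and 734 ± 41.05 in Crep (log2 -0.05), Uqcrq 268 ± 10.7 and 276 ± 19.4 (log2 0.05), the core protein gene Uqcrc1 148 ± 14.04 and 160.3 ± 9.63 (log2 0.12) and Uqcr11 130.2 ± 6.94 and 145 ± 19.2 (log2 0.16). No nuclear gene of either complex separated the hashtags of the groups.

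In complex IV, 0 of 11 tested nuclear genes passed and 7 were above 0. Cox8a had 1348 ± 32.4 CPM in Cren and 1391 ± 26.1 in Crep (log2 0.05), and Cox4i1, the largest nuclear subunit, 922 ± 31.2 and 901 ± 39.2 (log2 -0.03). Cox5a had 517, 577, 619 and 497 CPM in Cren and 626, 699.6, 627 and 565 in Crep, ranges that overlapped (log2 0.19, SE 0.09, edgeR adjusted p = 0.448). In complex V, 0 of 16 passed and 9 were above 0. Atp5j2, the f subunit, had 413, 427, 418 and 405 CPM in Cren and 463, 481, 451 and 443 in Crep, with every Crep hashtag above every Cren hashtag (log2 0.15, SE 0.07, adjusted p = 0.448). Atp5g2 lay the other way, at 999 ± 60.7 in Cren and 901 ± 29.6 in Crep with no overlap (log2 -0.14, adjusted p = 0.521), while Atp5h, the d subunit, had 813 ± 71.3 and 897 ± 44.4 (log2 0.15, adjusted p = 0.549). Counts of Atp5o and Atp5o.1, which share 1 gene name at overlapping positions in the annotation, are uncertain.

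Promoters of the nuclear genes were compared by letters alone. RefSeq windows of 250 bases before to 50 after the start site (GRCm38.p6) were found for 78 of the 91 genes, 2 of them by synonym. Both strands were searched for CGCATGCG, the palindromic core of the NRF1 site, for CCGGAAGT, a site of ETS factors such as GABPA, for AAGATGGC, a YY1 site, and for TATAAA (each counted by itself, whether or not matches overlapped). The NRF1 letters were in the windows of 11 of 78 genes (14.1%, against 2.07% of all 27025 genes with a window) and the YY1 letters in 11 (14.1% against 3.19%). The ETS letters were in 5 (6.41% against 4.31%) and TATAAA in 6 (7.69% against 15.7%). These shares describe letters in the windows and are no test of binding or of the groups.

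The 4 windows shown each run from 120 bases before to 30 after the start site, 5′ to 3′ on the strand of the gene, with the motif in capitals. Ndufa4 (chr6:11907421-11907570, minus strand) is shown as the gene that passed the test, and none of the 4 motifs lies in its window. Cox8a (chr19:7217587-7217736, minus strand) is the most abundant nuclear member and has the ETS letters from position -6. Atp5g2 (chr15:102671018-102671167, minus strand) and Atp5f1 (chr3:105959234-105959383, minus strand), the b subunit of complex V, are the most abundant members with NRF1 and YY1 letters in this stretch, from positions -41 and -3.
Ndufa4: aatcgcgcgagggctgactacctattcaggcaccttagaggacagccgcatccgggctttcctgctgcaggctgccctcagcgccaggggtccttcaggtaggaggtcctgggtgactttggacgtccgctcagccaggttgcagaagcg
Cox8a: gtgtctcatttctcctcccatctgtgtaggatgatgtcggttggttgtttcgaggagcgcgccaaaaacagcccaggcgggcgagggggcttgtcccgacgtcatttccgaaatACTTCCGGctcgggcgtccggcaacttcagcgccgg
Atp5g2: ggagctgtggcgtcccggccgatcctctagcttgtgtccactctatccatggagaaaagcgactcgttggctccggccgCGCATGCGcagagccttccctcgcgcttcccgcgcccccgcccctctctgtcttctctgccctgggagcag
Atp5f1: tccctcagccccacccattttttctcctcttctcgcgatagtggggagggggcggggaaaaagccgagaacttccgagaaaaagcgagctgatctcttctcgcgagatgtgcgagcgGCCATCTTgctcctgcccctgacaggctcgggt

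Across the 12 clusters of the annotation the nuclear and mitochondrial genes varied separately. The clusters were made from all genes of the same cells, so these levels are a description with no test. Leaving out cluster 9, the nuclear sum over all cells of a cluster ran from 21855 CPM in cluster 4 to 26232 in cluster 11 (73 cells). Cluster 0, the largest with 1321 cells, had 24885 CPM, 1.11 times that of the other cells, and 80 of 88 nuclear genes with enough UMIs lay above their level elsewhere. Cluster 0 also held much Itgae (356 CPM), the integrin of intestinal resident T cells, as did cluster 2 (331 CPM), whose nuclear sum was 0.96 times that of the other cells. Of other genes looked at as resident markers, cluster 0 had 159 CPM of Cd69, 160 of Itga1, 691 of Cxcr6 and 1912 of Rgs1. Cluster 2 had 283, 135, 599 and 2845 CPM of them. Only clusters 4 and 7 had less Cd69 than cluster 0. The mitochondrial sum was highest in cluster 5 (8210 CPM, 1.16 times the other cells, 12 of 13 genes above) and lowest in cluster 8 (6287 CPM, 0.87 times, 13 of 13 below). Cluster 5 had the highest level of Tcf7, a stem-like T cell factor (237 CPM), and cluster 8 the highest of the exhaustion genes Pdcd1 (520.2 CPM) and Tox (393 CPM). Of the other exhaustion genes looked at, Tigit was also highest in cluster 8 (488 CPM). Lag3 (150 CPM) and Havcr2 (33.7 CPM) were not, with 188 and 93.8 CPM in cluster 11. The hashtags filled the clusters unequally, and cluster 8 took 38.1% of its cells from Cren 3.

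**Figure D4:**
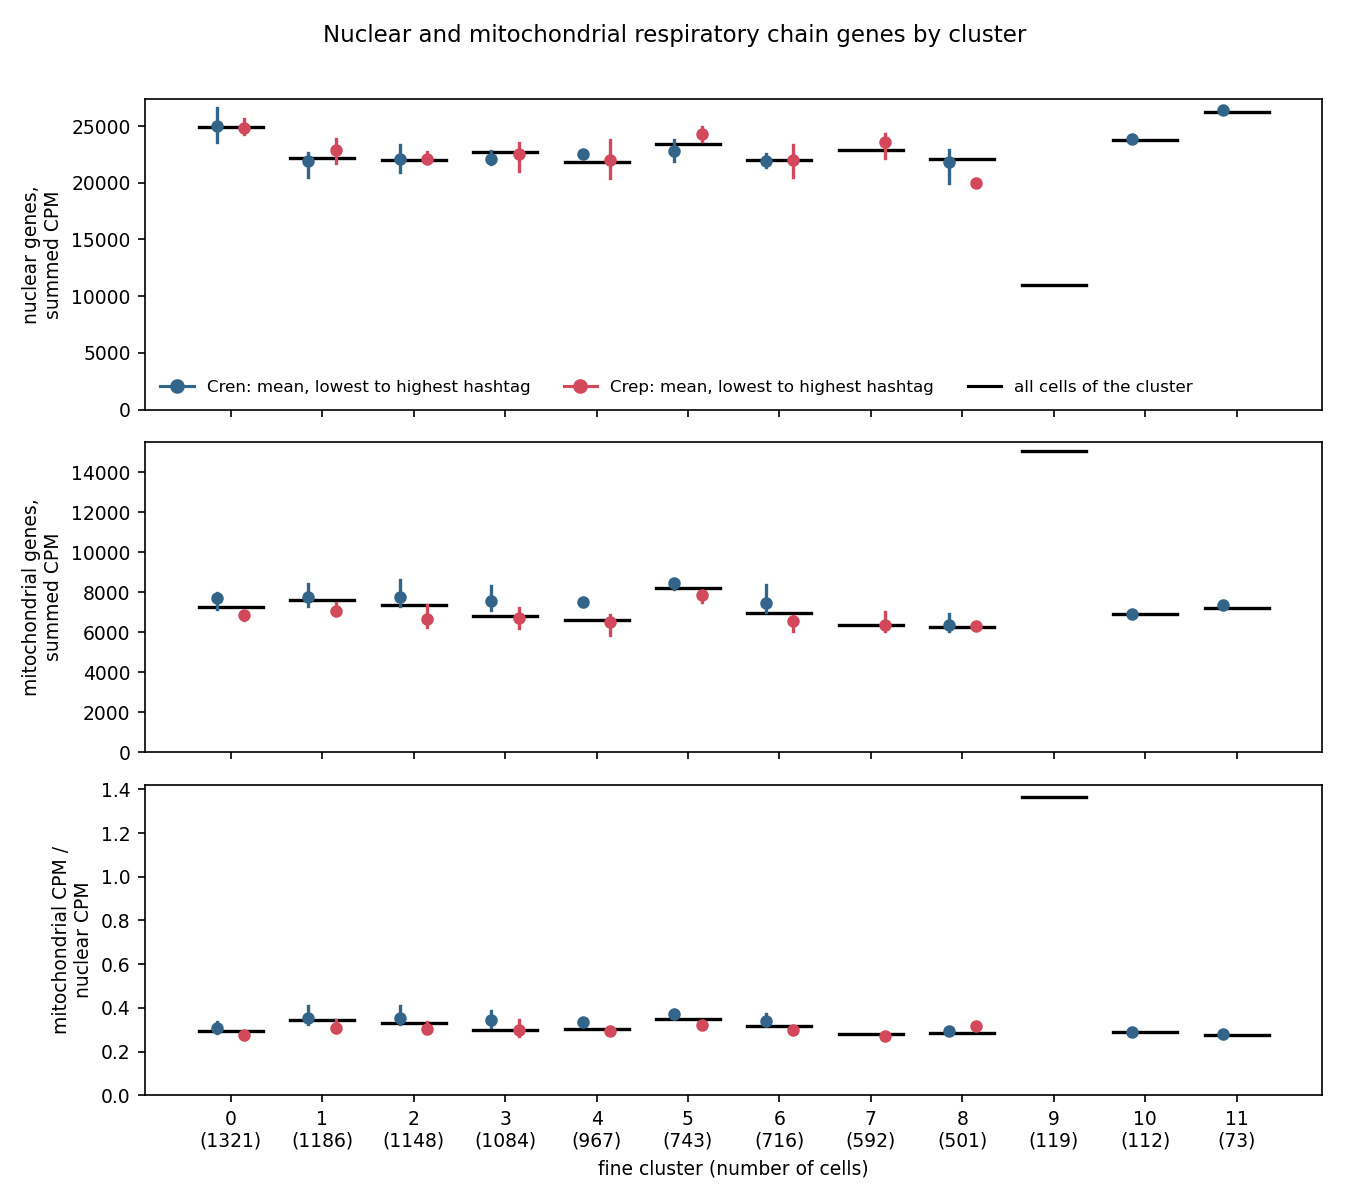
Summed CPM of the nuclear genes (top), of the mitochondrial genes (middle) and their ratio (bottom) in the 12 clusters, with the number of cells under each; black bars are all cells of the cluster, and points with lines the mean and the lowest to highest hashtag with at least 20 cells (Cren blue, Crep red). Cluster 9 has the lowest nuclear sum and the highest ratio (1.37), and among the others the Crep mean of the mitochondrial sum is below that of Cren wherever both groups are drawn.

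Cluster 9 stood apart from all others. It had 119 cells with a median of 1007 UMIs and 2.04% mitochondrial UMIs, and 52.1% of its cells were above 2% mitochondrial UMIs, against at most 2.93% in any other cluster. Its nuclear sum was 11020 CPM, 0.48 times that of the other cells, and its mitochondrial sum 15047 CPM, 2.11 times. By complex the nuclear fold ran from 0.44 to 0.63, with 84 of 88 genes below their level elsewhere, and all 13 mitochondrial genes were above, from 1.74 times (mt-Nd2) to 4.70 times (mt-Nd3, 11 UMIs). Cells of both groups were found there, 56 of Cren and 63 of Crep, with ratios of 1.27 and 1.49. Without these cells the mitochondrial sums over all cells were 7103 to 8220 CPM in Cren and 6361 to 6789 in Crep.

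Single members marked some clusters. Ndufaf4, an assembly factor of complex I, was 2.83 times as high in cluster 11 as in the other cells (71.9 against 25.4 CPM, on 23 UMIs), and Atp5h was 1.24 times as high in cluster 4 (1037 against 836 CPM). mt-Atp8 was the member farthest above in cluster 5 (1220.3 against 975 CPM, 1.25 times) and Ndufa4 in cluster 8 (359 against 309 CPM, 1.16 times). Most cells of cluster 8 were of Cren, with 38 to 191 per Cren hashtag and 5 to 22 per Crep hashtag. The Cren mean of Ndufa4 was 358 CPM there, between those of cluster 6 (276) and cluster 0 (404). The part of the group make-up in this excess was not tested. Cox5a was the member farthest below in cluster 1 (511 against 605 CPM, 0.84 times) and Ndufa8, an accessory subunit gene, in cluster 2 (106 against 137 CPM, 0.78 times). Ndufb4 was the member farthest above in cluster 10 (43.3 against 26.1 CPM, on 16 UMIs). The rarest members gave the remaining extremes. Sdhaf3 had 4 UMIs in cluster 8 and 1 in cluster 11, Atp5s 42 UMIs (1.71 times) in cluster 0 but 12, 11 and 0 in clusters 4, 5 and 10, Ndufaf6 29 in cluster 2, 8 in cluster 6 and 0 in cluster 9, mt-Nd3 42 in cluster 0 and 15 in cluster 7, and mt-Nd6 67 in cluster 3 (1.24 times).

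Ndufa4 ran in the order of clusters 10 (473 CPM), 11 (438), 8 (359), 0 (352), 1 (341), 5 (319.9), 4 (316), 2 (299), 3 (278), 6 (272), 7 (202) and 9 (121, on 21 UMIs). Cluster 10 was 97.3% Cren 3, whose Ndufa4 was 477 CPM there and 368 over all its cells. Cluster 7 was 64.7% Crep 4, with 188 CPM there and 255 over all its cells. From cluster 8 to cluster 4 the Cren hashtag ranges overlapped from one neighbour to the next.

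**Figure D5:**
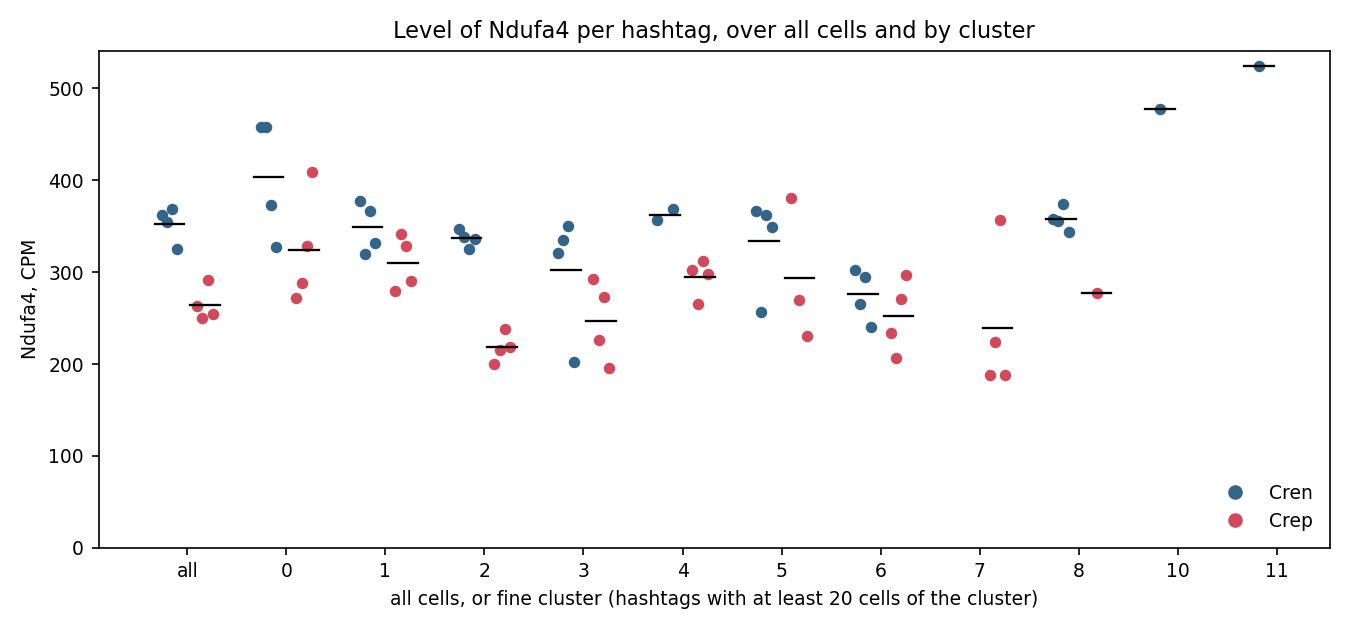
Ndufa4 in CPM over all cells and in each cluster, with 1 point per hashtag that had at least 20 cells there (Cren blue, Crep red) and a bar at the mean; cluster 9 had no such hashtag. The groups lie apart over all cells and in cluster 2, where Cren runs from 326 to 347 CPM and Crep from 200.4 to 238 CPM. They overlap in clusters 0, 1, 3, 5 and 6. In clusters with fewer hashtags drawn, the points also lie apart in cluster 4 (2 Cren hashtags at 357 and 369, Crep 265 to 312). The same holds in cluster 8 (Cren 344 to 374, 1 Crep hashtag at 277).

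The same test was run in the 6 clusters where 3 or more hashtags per group had 20 or more cells. In cluster 2 (1148 cells), 1 of 92 tested genes passed, again Ndufa4, where 0.28% of all genes tested did, 0.0801% of them as lower in Crep; 5 of the 92 had an unadjusted p under 0.05, against 6.13% of all genes. Ndufa4 there had 347, 338, 326 and 337 CPM in Cren 1 to 4 and 200.4, 215, 238 and 219 CPM in Crep 1 to 4. The groups lay far apart relative to their spread. The level fell from 337 ± 8.92 to 218 ± 15.5 CPM (SD, n = 4), or by log2 -0.64 with SE 0.13 (adjusted p = 0.0190, edgeR). Without Cren 1, Crep 1 or Crep 2 the adjusted p was 0.0741, 0.148 and 0.0857, at a log2 fold change of -0.57 to -0.64. In the other clusters Ndufa4 had a negative log2 fold change that did not pass, from -0.18 (cluster 1) to -0.35 (cluster 0). Its effect in cluster 1 minus that in cluster 0 was 0.14 (SE 0.15, adjusted p = 0.951) in an edgeR interaction test with the hashtag as a block. Whether the effect in cluster 2 differed from that in another cluster was not tested.

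No respiratory chain gene passed in the other 5 clusters with edgeR or with DESeq2. In edgeR the counts with an unadjusted p under 0.05 were 6 of 94 in cluster 0, 5 of 90 in cluster 1, 4 of 88 in cluster 3, 6 of 87 in cluster 5 and 2 of 86 in cluster 6, and with DESeq2 2, 2, 1, 2 and 1. Over all genes tested in these clusters, 0.98%, 0.173%, 0%, 1.19% and 0.0269% passed with edgeR, and 8.58%, 6.45%, 5.74%, 10.3% and 5.71% had an unadjusted p under 0.05. The smallest adjusted p there belonged to Cox5a in cluster 5 (log2 0.43, SE 0.13, adjusted p = 0.0782), which passed without Cren 3 (log2 0.56, adjusted p = 0.00383). Crep 4 had 19 cells in cluster 5 and was left out of that fit. The interaction test called 0 of 95 genes (4 at an unadjusted p under 0.05 with edgeR, 0 with DESeq2), against 0.132% of all genes that passed and 6.37% at that unadjusted p.

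Most mitochondrial genes were below 0 within the clusters too. Of those tested, 11 of 12 were below 0 in cluster 0, 10 of 11 in each of clusters 1, 2 and 3, and 9 of 11 in clusters 5 and 6, with medians between -0.14 and -0.22. Over all genes tested, 50.7% were below 0 in clusters 0, 1 and 3, 51.4% in clusters 2 and 5, and 52.7% in cluster 6. mt-Atp8, mt-Co1, mt-Cytb, mt-Nd4l and mt-Nd5 were below 0 in 6 of 6 clusters. The 6 clusters share the same 8 hashtags, so they are not separate tests of the groups. The mitochondrial sum of every Crep hashtag lay below that of every Cren hashtag in cluster 0 (6600 to 7030 against 7168 to 7954 CPM), cluster 5 (7523 to 8030.1 against 8148 to 8632) and cluster 6 (6046 to 6821 against 7007 to 8382), and overlapped in clusters 1, 2 and 3. The nuclear sums overlapped in all 6.

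Genes that serve the chain were looked at through 7 lists. None of the 214 list genes tested passed with edgeR (16 at an unadjusted p under 0.05; limma-voom 0 passed, DESeq2 1, Hspe1), where 0.611% of all genes passed and 11.1% had such a p, so the list genes were called no more often than all genes. Over all genes 49.9% were above 0. The list medians ran from -0.02 for the 28 import and inner membrane genes and the 10 regulators to 0.01 for the 35 genes of cytochrome c and assembly, none as far from 0 as the -0.17 of the mitochondrial genes. The mitochondrial ribosome (78 genes, 41 above 0), the tricarboxylic acid cycle (19, 8 above 0), carriers (11, 6 above 0) and mitochondrial DNA expression (33, 17 above 0) all had medians within 0.01 of 0. Tfam, which packages and transcribes mitochondrial DNA, had 22.6, 23.6, 22.4 and 24.2 CPM in Cren and 16.2, 17.5, 17.8 and 20.5 in Crep. The groups did not overlap, at log2 -0.36 (SE 0.13, adjusted p = 0.285 by edgeR). Its neighbour by p in that list was Polg2, the accessory subunit of the mitochondrial DNA polymerase (-0.34, adjusted p = 0.428). The matrix chaperonin genes Hspe1 (315 ± 38.5 and 241 ± 14.9 CPM in Cren and Crep, log2 -0.38, adjusted p = 0.0733) and Hspd1 (133 ± 7.01 and 114 ± 7.52, log2 -0.22, adjusted p = 0.313) lay apart in the same direction.

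Cycs, the gene of cytochrome c, had 67.4, 67.5, 72.1 and 68.5 CPM in Cren and 76.1, 86.6, 83.8 and 82.0 in Crep, with every Crep hashtag above (log2 0.26, SE 0.09, edgeR adjusted p = 0.247). Uqcc2, an assembly factor of complex III, had 91.1 ± 10.2 and 114 ± 10.02 CPM (log2 0.33, adjusted p = 0.181). The ADP/ATP carrier gene Slc25a5 had 537 ± 22.8 and 476 ± 35.7 CPM (log2 -0.17, adjusted p = 0.427). The remaining genes named by the same rule were Vdac3 (-0.17), Mrps6 (-0.38), Mrpl32 (-0.21), Gabpb1 (-0.26), Myc (-0.29), Idh3g (-0.19) and Suclg1 (0.14), with adjusted p-values from 0.307 to 0.666.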

How the data were processed

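The values the authors deposited are UMI counts of each gene in each cell, from a 10x 5′ v2 kit with feature barcoding, per the labels' protocols. The submitters' processing notes name Seurat 4.3.0, Cell Ranger 7.0.0, bcl2fastq 2.20.0.422 and build mm10, with no roles. Hashtag, group, cluster (resolution 0.9) and the mitochondrial percent per cell came from the annotation deposited by the authors. The values show a minimum of 500 genes a cell, a maximum of 3.0% mitochondrial UMIs and a minimum of 9 cells a gene. No cell was removed and no doublet caller was run; 115 cells (1.34%) whose hashtag was uncertain were left out in an alternative. No per-sample column was left unused (0).

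UMIs were summed per hashtag and tested as Crep minus Cren in edgeR 4.0.16 (TMM, filterByExpr, robust quasi-likelihood, two-sided), over all genes, in all cells and in clusters where 3 hashtags or more per group had 20 cells or more. DESeq2 1.42.0 and limma 3.58.1 (voom) were alternatives, in R 4.3.3; Python 3.11.15 and pandas 2.3.3 made the sums. The script was tested on simulated data. CPM divides by the plain UMI total of the cells used. Errors are the SD between hashtags, or the SE from the fit. Named genes were those that passed, all mitochondrial genes, the 2 most abundant and the 2 most different genes of each nuclear complex (average log2 CPM of at least 4), the extremes of each cluster (at least 50 UMIs), isoform sets and the 2 list genes of smallest p; 1 gene the rule names is not reported here. Ndufs7, Atp5o and Bcl6 lie outside that rule and were named after their values were seen. The NRF1 letters are the core of a longer form, counted first, which was in fewer windows of the members and of all genes; the core was taken after that count. The members and lists were chosen with earlier results of these data known. Thinning kept 6639 cells. Gene positions are from GENCODE vM21 (GRCm38), found for 102 of the 104 genes.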

Additional observations from a re-analysis of the deposited data

Results flagged for a closer look

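Among 126 sets of 4 hashtags (the named genes and the sums, in each group), 8 held a hashtag set apart from the other 3 by a gap close to the whole range of the group; about 1 in 20 such sets does so by chance. In Cren, hashtag 4 was low for Uqcrc1 (126.9 CPM) and high for the mitochondrial to nuclear ratio of complex IV (0.835). Cren hashtag 2 was high for Sdha (110.2 CPM), Cren hashtag 1 for Uqcrq (284 CPM) and Cren hashtag 3 for the rare genes Ndufaf6 (8.48 CPM) and Cox6b2 (1.51 CPM). In Crep, hashtag 4 was high for mt-Nd2 (126.7 CPM) and hashtag 3 low for Ndufaf6 (6.03 CPM). None of these genes passed the test between the groups.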

How the results depend on the processing

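Of 1212 recomputed values, 1186 counted as unchanged, and none reversed a called direction. A gene that was not called counted as unchanged as long as it stayed uncalled, whatever its sign or size. The 1186 therefore include 20 uncalled log2 fold changes that crossed 0. Of the respiratory chain genes, 1 passed over all cells, and DESeq2 passed 2; without clusters 7 and 10, or with the cluster mix held fixed, 0 passed. Leaving out 1 hashtag gave 0 to 2 over all cells (0 without Cren 1, Cren 2, Crep 1, Crep 2 or Crep 4, and 2 without Cren 3), 0 to 1 in cluster 2 (0 without Cren 1, Crep 1 or Crep 2) and 0 to 1 in cluster 5 (1 without Cren 3). The Ndufa4 log2 fold change stayed between -0.47 and -0.28 in 18 alternatives, 11 of which passed (adjusted p from 0.00155 to 0.117). It was -0.33 without clusters 7 and 10, -0.28 with the mix held fixed, and -0.47 to -0.38 without 1 hashtag; in cluster 2 it was -0.70 to -0.57 without 1 hashtag. The causes of these shifts were not tested, and a fit without 1 hashtag also had fewer hashtags. The mitochondrial sum of complex V was -0.19 without mt-Atp8, its largest member, against -0.29 with it. The mitochondrial sum had a log2 difference of -0.24 to -0.16 and the nuclear sum of -0.01 to 0.05 over all alternatives. The alternatives without cluster 9, with thinned cells for the sums, without the dominated clusters for the sums and at no more than 2% mitochondrial UMIs were chosen after seeing the data.

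With the replicate number as a block, Ndufa4 stood at log2 -0.41 (adjusted p = 0.01655, edgeR), and 1 gene passed. The numbers were not read as pairs, since same-numbered hashtags deviated together with correlations of -0.04, 0.14, 0.18 and 0.12. Members of few UMIs, such as mt-Nd3, Ndufaf6 and Sdhaf3, had SEs of 0.21 to 0.23, so differences of that size were not detectable for them.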
